A study of Mus musculus with 576 samples.

Results

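The genes described here are the subunits of the mitochondrial respiratory chain and of ATP synthase, with the other genes of the mitochondrial chromosome. They were chosen by symbol alone: every symbol starting with mt-, Nduf, Sdh followed by a to d, Uqcr, Atp5 or Cox4 to Cox8, with pseudogenes left out. This gave 134 of 49466 genes, 37 of them mitochondrially encoded (mt-) and 97 of them nuclear. The nuclear members were 38 genes of complex I with 8 of its assembly factors, 4 of complex II with 4 assembly factors, 8 of complex III, 18 of complex IV and 17 of ATP synthase. The name Ndufa4 is kept in complex I by its symbol, although its product is now placed in complex IV.

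The respiratory chain passes electrons from NADH (complex I) and succinate (complex II) through complex III to oxygen at complex IV, and ATP synthase uses the proton gradient that this builds. Complex II is wholly nuclear, whereas the other complexes mix nuclear subunits with a few subunits read from mitochondrial DNA. That DNA is copied into long RNAs of both strands, which are cut into messenger RNAs, the ribosomal RNAs of the mitochondrial ribosome and transfer RNAs. Mitochondria also make heme, the iron pigment of hemoglobin, and are removed from the red cell late in its maturation.

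Counts came from single cells of C57/Bl6J mouse fetal liver at embryonic day 14.5, enriched by sorting for burst forming unit-erythroid (BFU-E) cells, the early committed progenitors of the red cell lineage. All cultures held stem cell factor, insulin-like growth factor 1 and erythropoietin. The groups were cells with 100 nM dexamethasone, a synthetic glucocorticoid, for 24, 48 or 72 hours (days 1, 2 and 3), and control cells without it for the same times. Each combination of treatment and day was 1 plate of 96 wells, so plate, day and treatment cannot be told apart within a day, and the labels do not tie plates to separate animals or cultures. No combination had a second plate, so the spread between like plates was not measured. In the gene fits, a p-value is set against departures of the plates from the same dexamethasone difference on every day. Those departures may be technical or may be real changes of the difference between days, and the fits cannot tell these apart.

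After wells with few counts were removed, 94, 94 and 94 cells were left with dexamethasone on days 1, 2 and 3, and 94, 96 and 93 in controls. A cell held 66140 to 3757116 gene counts, with a median of 1089729, and the plate sums held 88178493 to 116623968. Levels are in CPM, counts scaled by the depth of the plate and by its TMM factor, edgeR's scaling between plates. The summed level of 12 genes of erythroid maturation was 830, 2061 and 7795 CPM on the dexamethasone plates of days 1 to 3. On the control plates it was 1798, 17190 and 30120 CPM, so the plates differed in maturation as well as in treatment. Cells with markers of neutrophils and monocytes numbered 10, 5 and 11 with dexamethasone and 16, 0 and 11 without; their summed markers ranged from 318.4 to 587.8 CPM with dexamethasone and from 3.82 to 2116 CPM in controls. Summed levels of other marker lists differed between plates as well. The 8 early progenitor markers summed to 1054, 1318 and 731 CPM with dexamethasone and 1060, 599.6 and 484 CPM in controls, and the 7 megakaryocyte markers to 303, 364 and 230 CPM with dexamethasone and 302, 88.02 and 83.35 CPM in controls. The 8 mast cell and basophil markers summed to 15.8, 141 and 2.56 CPM with dexamethasone and 29.9, 0 and 34.3 CPM in controls, with Fcer1a at 0 throughout. The 6 hepatocyte markers summed to 4.44, 61.8 and 5.18 CPM with dexamethasone and 2.76, 0.445 and 2.35 CPM in controls, with Ttr and Serpina1a at 0 throughout. The 7 macrophage markers ranged from 0.373 to 3.00 CPM with dexamethasone and from 0.00927 to 7.6 CPM in controls, with C1qa, C1qb, C1qc and Cd5l at 0 throughout. The 7 lymphoid markers ranged from 1.88 to 9.2 CPM with dexamethasone and from 1.85 to 34.1 CPM in controls. The part of maturation and of these other cells in the results was not tested, apart from the removal of the neutrophil and monocyte cells.

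Several mt- genes could not be measured in these counts. mt-Co2 and mt-Co3, subunits of complex IV, mt-Atp6 of ATP synthase and mt-Nd4l of complex I each lay between 0 and 0.225 CPM on all plates, while mt-Co1, the catalytic subunit of complex IV, held 5334 to 11890 CPM. The GENCODE vM21 transcripts of these 4 genes were identical, but for at most 3 bases at their ends, to annotated nuclear pseudogenes on chromosome 1. Those lie among 7 copies at chr1:24611535-24616197 (GRCm38, minus strand), Gm28661 for mt-Co2, Gm28437 for mt-Co3, Gm10925 for mt-Atp6 and Gm10222 for mt-Nd4l. The highest value of any of the 7 copies was 0.909 CPM, so neither these genes nor their copies were counted above that level. How reads that map to several places were treated is not given in the sources used here. mt-Atp8, which lies between mt-Co2 and mt-Atp6 on the mitochondrial chromosome and has no annotated copy of its own, was also at or under 0.0981 CPM.

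mt-Nd3, a subunit of complex I, held 32.5, 47.1 and 47.4 CPM with dexamethasone on days 1 to 3, and 30.4, 19.3 and 20.9 CPM in controls. It differed from its copy Gm28438 at a single place over 345 aligned bases, T3C, counted from 1 at the 5′ end of the gene, with the base of mt-Nd3 first. The start of both is shown because it holds the base that differs, in capitals. The upper line is chrM:9459-9521 and the lower line chr1:24613057-24613119 on the minus strand, both from GENCODE vM21 on GRCm38.
mt-Nd3: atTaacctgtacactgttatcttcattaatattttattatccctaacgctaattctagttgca
Gm28438: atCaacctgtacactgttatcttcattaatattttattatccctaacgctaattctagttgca

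mt-Nd4 shared 876 of its 1378 bases with a copy on chromosome 1, without a mismatch, and mt-Co1 shared 483 of 1545 with 1 mismatch. Over all 1545 bases mt-Co1 also matched Gm13340 on chromosome 2, at 97.61% identity. That copy held 5.17 to 7.04 CPM with dexamethasone and 7.74 to 12.2 CPM in controls. mt-Nd2, mt-Nd5, mt-Nd6 and mt-Cytb had copies on other chromosomes at 92.42% to 96.67% identity. mt-Rnr1, mt-Rnr2 and mt-Nd1 had no annotated copy of at least 150 bases at 90% identity. The levels of mt- genes therefore cannot be ranked against each other, and every mt- share below is a share of the countable reads. Of the 37 mt- genes, 24 passed the filter on low counts, which removed 2 messenger RNAs and 11 transfer RNAs; 94 of 97 nuclear members passed.

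Cells with dexamethasone gave more of their counts to mitochondrial ribosomal RNA than control cells did on each day. The median share per cell was 1.64%, 2.59% and 3.33% on the dexamethasone plates of days 1 to 3, and 0.96%, 1.64% and 0.821% on the control plates. The daily difference averaged 1.38 ± 0.987 percentage points (SD, n = 3 days; exact two-sided sign-flip permutation test p = 0.25, the smallest p that 3 days allow) and was 0.816 without day 3. The plates overlapped at the edge: dexamethasone day 1 and control day 2 both stood near 1.64%.

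The mitochondrial messenger RNAs did not follow that order. Their median share per cell was 2.25%, 2.06% and 2.42% with dexamethasone, and 2.95%, 1.82% and 2.55% in controls. Dexamethasone cells were lower on days 1 and 3 and higher on day 2, with a mean difference of -0.196 ± 0.477 percentage points (SD, n = 3 days; exact sign-flip permutation p = 0.75). All mt- genes together took 3.93%, 4.61% and 5.69% of the counts of a dexamethasone cell, and 3.91%, 3.47% and 3.38% of those of a control cell. That difference averaged 1.16 ± 1.15 percentage points (SD, n = 3 days; exact sign-flip permutation p = 0.25) and was 0.583 without day 3.

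**Figure D1:**
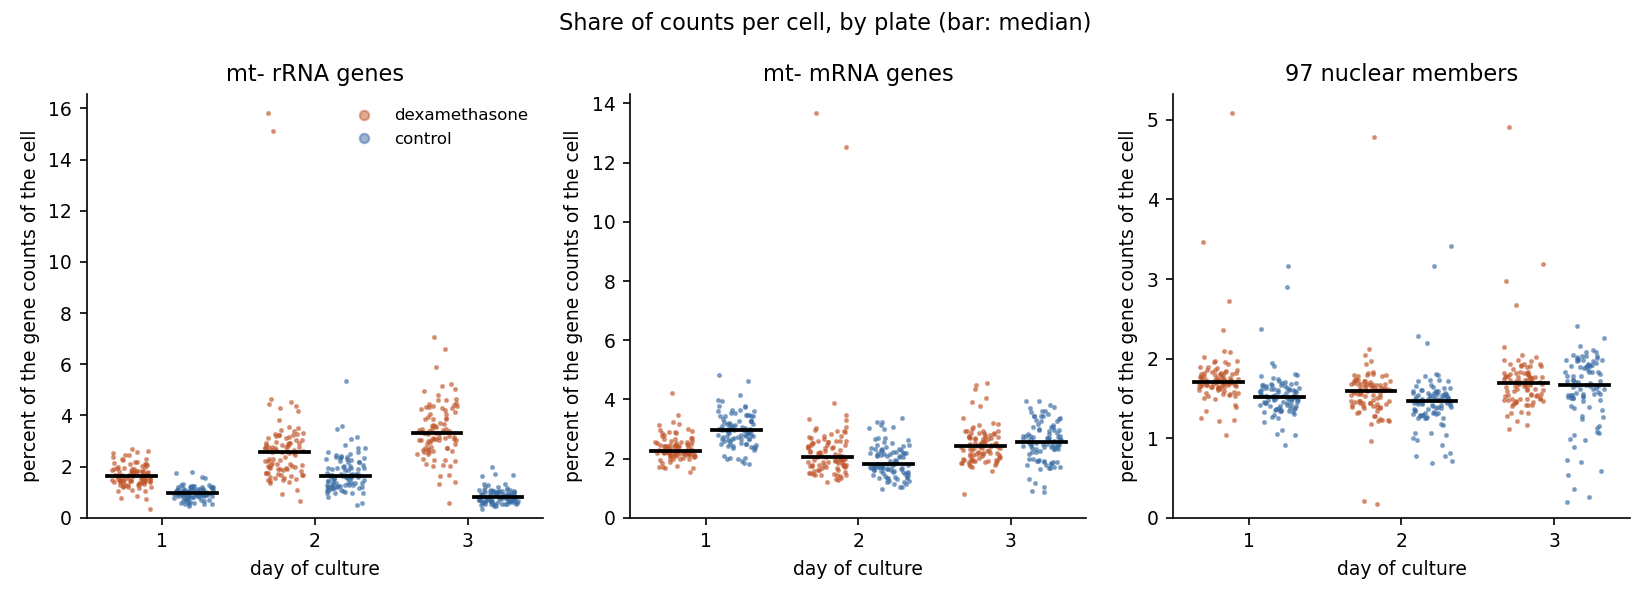
Share of each cell's gene counts on mt- ribosomal RNAs, mt- messenger RNAs and the 97 nuclear members (percent), by day, with dexamethasone cells left of control cells; 1 point per cell and a bar at the plate median. The ribosomal RNA medians are higher with dexamethasone on each day (3.33% against 0.821% on day 3), the messenger RNA medians change order between days, and the nuclear medians lie between 1.47% and 1.71%.

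mt-Rnr2, the large ribosomal RNA (chrM:1094-2675 on GRCm38), carried nearly all of this share. Its level was 15640, 24180 and 32970 CPM on the dexamethasone plates of days 1 to 3, and 9148, 17970 and 8846 CPM on the control plates. Control day 2 lay above dexamethasone day 1, so the groups overlapped. The fitted log2 fold was 1.03 ± 0.32 (SE, 6 plates; edgeR quasi-likelihood adjusted p = 0.458), and it ran from 0.59 to 1.33 over the alternatives.

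mt-Rnr1, the small ribosomal RNA, was counted at far lower levels, 108, 158 and 171 CPM with dexamethasone and 71.8, 75.4 and 55.6 CPM in controls. Every dexamethasone plate lay above every control plate. The log2 fold was 1.09 ± 0.24 (SE, 6 plates; edgeR adjusted p = 0.458). The labels give the molecule as polyadenylated RNA, and the tails of these ribosomal RNAs were not measured.

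mt-Co1 (chrM:5328-6872) went the other way. It held 5334, 6921 and 7242 CPM on the dexamethasone plates of days 1 to 3, and 10870, 8550 and 11890 CPM on the control plates, without overlap. The log2 fold was -0.68 ± 0.17 (SE, 6 plates; edgeR adjusted p = 0.458).

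mt-Nd1, a core subunit of complex I, differed more by day than by treatment. It held 8917, 4569 and 8001 CPM with dexamethasone on days 1 to 3, and 8738, 3876 and 7980 CPM in controls, low on day 2 in both. Per count of mt-Co1 there were 1.67, 0.66 and 1.11 counts of mt-Nd1 with dexamethasone, and 0.804, 0.453 and 0.671 in controls. This ratio was higher in dexamethasone cells on each of the 3 days.

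mt-Nd2, another complex I subunit, had 430, 705 and 572 CPM with dexamethasone and 459, 395 and 281 CPM in controls, higher with dexamethasone on days 2 and 3 only. mt-Cytb, the mitochondrial subunit of complex III, had 4068, 4456 and 4837 CPM with dexamethasone and 4979, 3889 and 4320 CPM in controls, with no common direction over the days. mt-Nd5 of complex I held 2498, 2748 and 2630 CPM with dexamethasone and 2354, 2635 and 2036 CPM in controls. mt-Nd4 stayed between 1007 and 1113 CPM with dexamethasone and between 1024 and 1129 CPM in controls. mt-Nd6, the complex I subunit read from the opposite strand and overlapping mt-Nd5 by 14 bases, held 87.4, 153 and 90.2 CPM with dexamethasone and 76.5, 92.5 and 112 CPM in controls.

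**Figure D2:**
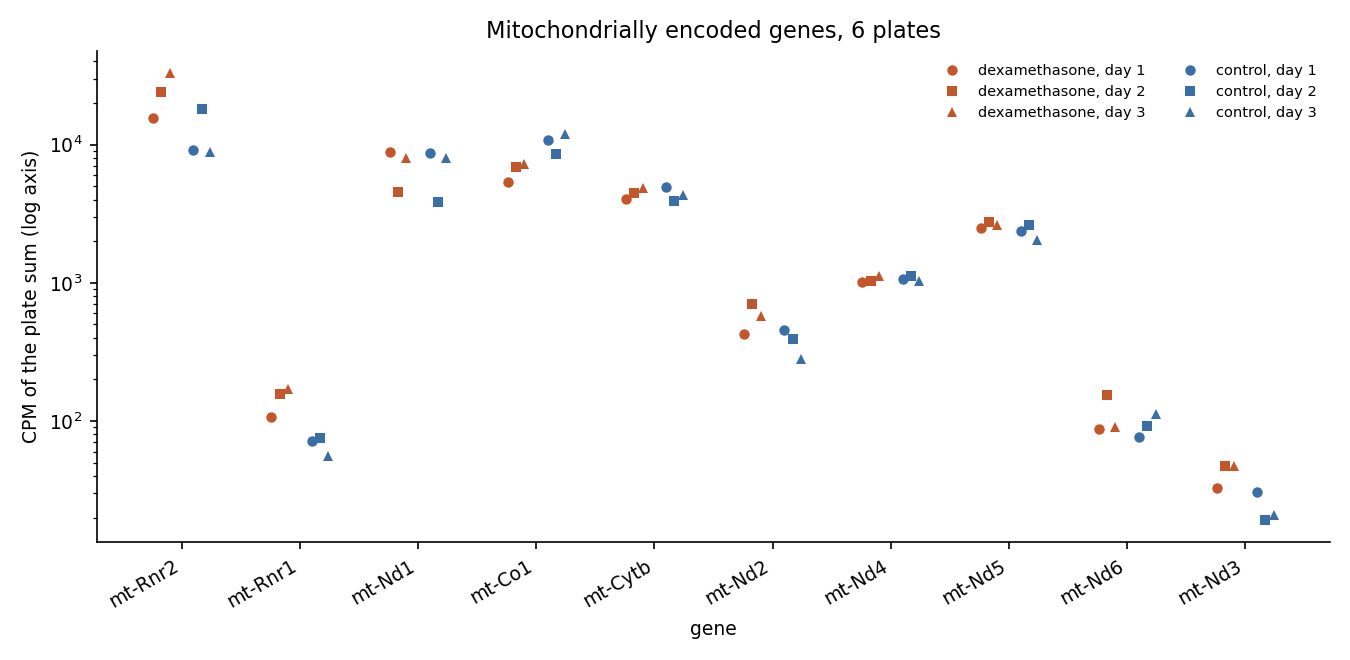
Levels of 10 mt- genes in the 6 plate sums (CPM, log axis), with dexamethasone plates left of control plates for each gene and a marker shape for each day. mt-Rnr1 and mt-Nd3 lie higher and mt-Co1 lies lower on every dexamethasone plate than on every control plate, and mt-Nd1 is low on day 2 in both groups.

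No member passed the main test for dexamethasone, edgeR's quasi-likelihood test over 6 plate sums, nor did any other gene: the background was 0.0% of 20044 genes at an adjusted p under 0.05. At an unadjusted p under 0.05 there were 3 higher and 1 lower of 24 mt- genes, and 12 higher and 1 lower of 94 nuclear members, against 4.52% of all genes higher and 5.81% lower (10.3% in all). With genes at a mean of 50 CPM or more, edgeR called 0.416% of 4323 genes higher and 0.463% lower (0.879% in all), among them no member. DESeq2 called 3.26% of 17155 genes higher and 4.58% lower (7.84% in all), among them mt-Rnr2 (adjusted p = 0.0228) and mt-Rnr1 (adjusted p = 0.00232) as higher and mt-Co1 as lower (adjusted p = 0.0149). Among the nuclear members it called Atp5g3 alone, higher with dexamethasone (adjusted p = 0.0285).

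Gene by gene, most nuclear members were slightly higher with dexamethasone. Their summed level was 16710, 15610 and 17140 CPM with dexamethasone on days 1 to 3, and 15320, 15740 and 17410 CPM in controls. With TMM scaling, that sum was higher with dexamethasone on day 1 only. By plate depth alone, the nuclear members took 1.738%, 1.607% and 1.716% of the plate's counts with dexamethasone, and 1.557%, 1.5% and 1.675% in controls. Those shares were higher with dexamethasone on each day. Of 94 tested nuclear members, 74 had a positive fitted log2 fold, and the median of the 94 was 0.20, against 0.07 for all tested genes. Of the 90 members with a mean of at least 10 CPM, 42 were higher with dexamethasone on each of the 3 days, where the background was 19.7% of 8284 genes at that level, and 8 were lower on each day (background 24.6%). All dexamethasone plates lay above all control plates for 16 of these 90 (background 6.39%) and below them for 2, Ndufa10 and Ndufaf3 (background 8.93%). Short genes had positive folds in the whole table as well: over all genes at that level, the median fold was 0.20 for those with under 1000 bases of exon and -0.03 for the rest. For the nuclear members the same medians were 0.28 (19 genes) and 0.17 (71 genes), and the part of gene length in the group's fold was not tested.

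Per cell, the nuclear members took 1.71%, 1.60% and 1.69% of counts with dexamethasone on days 1 to 3, and 1.52%, 1.47% and 1.67% in controls. The difference averaged 0.112 ± 0.0879 percentage points (SD, n = 3 days; exact sign-flip permutation p = 0.25) and was 0.0173 on day 3. Some wells stood above these medians at the same well number on several plates. Well 68 held 3.47% and 3.19% with dexamethasone on days 1 and 3, and 3.17% on control days 1 and 2. Well 76 held 2.73%, 4.78% and 4.91% with dexamethasone on days 1 to 3, and 2.37%, 2.285% and 2.26% in controls. The part of well position was not tested. The log2 ratio of mt- messenger RNA counts to nuclear member counts had medians of 0.44, 0.39 and 0.51 with dexamethasone and 0.98, 0.43 and 0.63 in controls. The difference, dexamethasone minus control, was -0.55, -0.03 and -0.13 on days 1 to 3 (mean -0.23 ± 0.27, SD, n = 3 days; exact sign-flip permutation p = 0.25).

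The complexes differed in how far they shared this. Complex I took 0.389%, 0.375% and 0.425% of counts per cell with dexamethasone and 0.328%, 0.338% and 0.398% in controls, higher on each day. Complex IV took 0.177%, 0.198% and 0.210% with dexamethasone and 0.140%, 0.137% and 0.199% in controls, also higher on each day. Complex II stood at 0.168%, 0.141% and 0.145% with dexamethasone and 0.163%, 0.151% and 0.152% in controls, higher on day 1 only. Complex III and ATP synthase changed direction between days as well. These differences between complexes were not tested.

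By fitted dexamethasone fold, 31 of 38 complex I subunits were positive (median log2 fold 0.19), as were 6 of 8 tested members of complex III (0.26), 12 of 15 of complex IV (0.26) and 13 of 17 of ATP synthase (0.20). Of the complex II subunits 3 of 4 were positive (0.08). The assembly factors, which help to build a complex and are no part of it, were positive in 5 of 8 cases for complex I (0.15) and in 4 of 4 for complex II (0.22). Among them Ndufaf3 had the lowest fold, with 12.7, 5.54 and 14.9 CPM on the dexamethasone plates of days 1 to 3 and 20.8, 23.4 and 15.8 CPM on the control plates, without overlap (log2 fold -0.95; edgeR adjusted p = 0.542). Its exons overlap Impdh2 on the opposite strand. Ndufaf8 went the other way, with 19.9, 24.5 and 23.2 CPM with dexamethasone and 19.6, 14.6 and 16.4 CPM in controls, also without overlap. Sdhaf2, which helps to attach the flavin of Sdha, held 97.7, 92.96 and 95.9 CPM with dexamethasone and 82.7, 78.5 and 96.4 CPM in controls, where the groups overlapped; its exons overlap Cpsf7 on the opposite strand. Of the others, Ndufaf7 and Ndufaf1 had log2 folds of -0.15 and -0.29, and Sdhaf1, Sdhaf3 and Sdhaf4 had 0.43, 0.28 and 0.09, all with overlap between the groups.

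Among the members named by rank of level and fold, most catalytic or core subunits had negative dexamethasone folds and most accessory subunits positive ones, a split seen in the values and not tested. In complex I, Ndufs1, the largest iron-sulfur subunit, held 308, 368 and 308 CPM with dexamethasone and 366, 412 and 354 CPM in controls (log2 fold -0.20). Ndufv1, the NADH-binding subunit, had 308, 294 and 339 CPM with dexamethasone and 302, 394 and 342 CPM in controls (log2 fold -0.13, above 0 when either day 2 plate was left out). Ndufb6, an accessory subunit of the membrane arm, held 74.9, 68.9 and 83.02 CPM with dexamethasone and 53.7, 42.6 and 65.8 CPM in controls, without overlap (log2 fold 0.50). Ndufb5, of the same arm, held 122, 82.99 and 124 CPM with dexamethasone and 87.03, 61.7 and 86.6 CPM in controls (log2 fold 0.48). Exons of Ndufb5 overlap Mrpl47 and those of Ndufb6 overlap Smim27, each on the opposite strand, and the strand setting of the counts is not given. None of these 4 genes passed the adjusted test.

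In complex II, which oxidises succinate, the 4 subunits had small folds. Sdha, its flavin-bearing subunit, held 682, 811 and 656 CPM with dexamethasone and 862, 933 and 726 CPM in controls, lower on each day (log2 fold -0.23). Sdhb, the iron-sulfur subunit, and Sdhc and Sdhd, the membrane anchors, had log2 folds of 0.11, 0.24 and 0.05; those of Sdhb and Sdhd were below 0 when either day 1 plate was left out. In complex III the core proteins Uqcrc1 and Uqcrc2 had log2 folds of -0.11 and -0.28, and the small subunits Uqcr10 and Uqcr11 had 0.43 and 0.41. Uqcr10 held 50.8, 51.8 and 58.2 CPM with dexamethasone and 41.3, 39.1 and 39.1 CPM in controls, without overlap.

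ATP synthase gave the 1 nuclear call of DESeq2. Atp5g3 encodes the c subunit of its rotating ring, as do Atp5g1 and Atp5g2. It held 205, 205 and 228 CPM on the dexamethasone plates of days 1 to 3 and 149, 146 and 132 CPM on the control plates, without overlap (log2 fold 0.58 ± 0.12, SE, 6 plates; edgeR adjusted p = 0.458). Atp5g1 held 147, 131 and 129 CPM with dexamethasone and 127, 99.3 and 116 CPM in controls, also without overlap, and Atp5g2 stayed at or under 15.1 CPM on every plate. Atp5b and Atp5a1, subunits of the catalytic head and the most abundant nuclear members, lay lower with dexamethasone on each day. Atp5b held 2476, 2627 and 2533 CPM with dexamethasone and 2577, 3023 and 2750 CPM in controls (log2 fold -0.13). Atp5a1 held 1876, 1647 and 1647 CPM with dexamethasone and 2080, 1838 and 1860 CPM in controls (log2 fold -0.16). Atp5j, the coupling factor 6 subunit, held 147, 177 and 173 CPM with dexamethasone and 112, 111 and 142 CPM in controls, without overlap (log2 fold 0.44); its exons overlap Gabpa on the opposite strand. Atp5sl, which carries the symbol but is not a subunit of the enzyme, had the highest fold of the class at a mean of 10 CPM or more, with 25.1, 16.5 and 20.8 CPM with dexamethasone and 25.2, 9.44 and 10.2 CPM in controls (log2 fold 0.61). Control day 1 lay level with dexamethasone day 1, so the groups overlapped.

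Complex IV, the oxidase, had 15 tested members with a median log2 fold of 0.26. Cox6c held 114, 144 and 160 CPM with dexamethasone and 93.1, 96.4 and 99.1 CPM in controls, without overlap (log2 fold 0.52); its exons overlap Vps13b on the opposite strand. Cox7b had log2 fold 0.41 and Cox5a 0.41, again without overlap. Cox8a, a small subunit of high level per kilobase of exon (a mean of 405 CPM), held 227, 326 and 270 CPM with dexamethasone and 214, 231 and 235 CPM in controls, higher on each day. Cox7a2l, which helps to join complexes III and IV, held 123, 111 and 141 CPM with dexamethasone and 89.1, 122 and 213 CPM in controls (log2 fold -0.09, above 0 when either day 3 plate was left out). mt-Co1, the mitochondrial core of the same complex, lay lower on every dexamethasone plate, as given above.

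**Figure D3:**
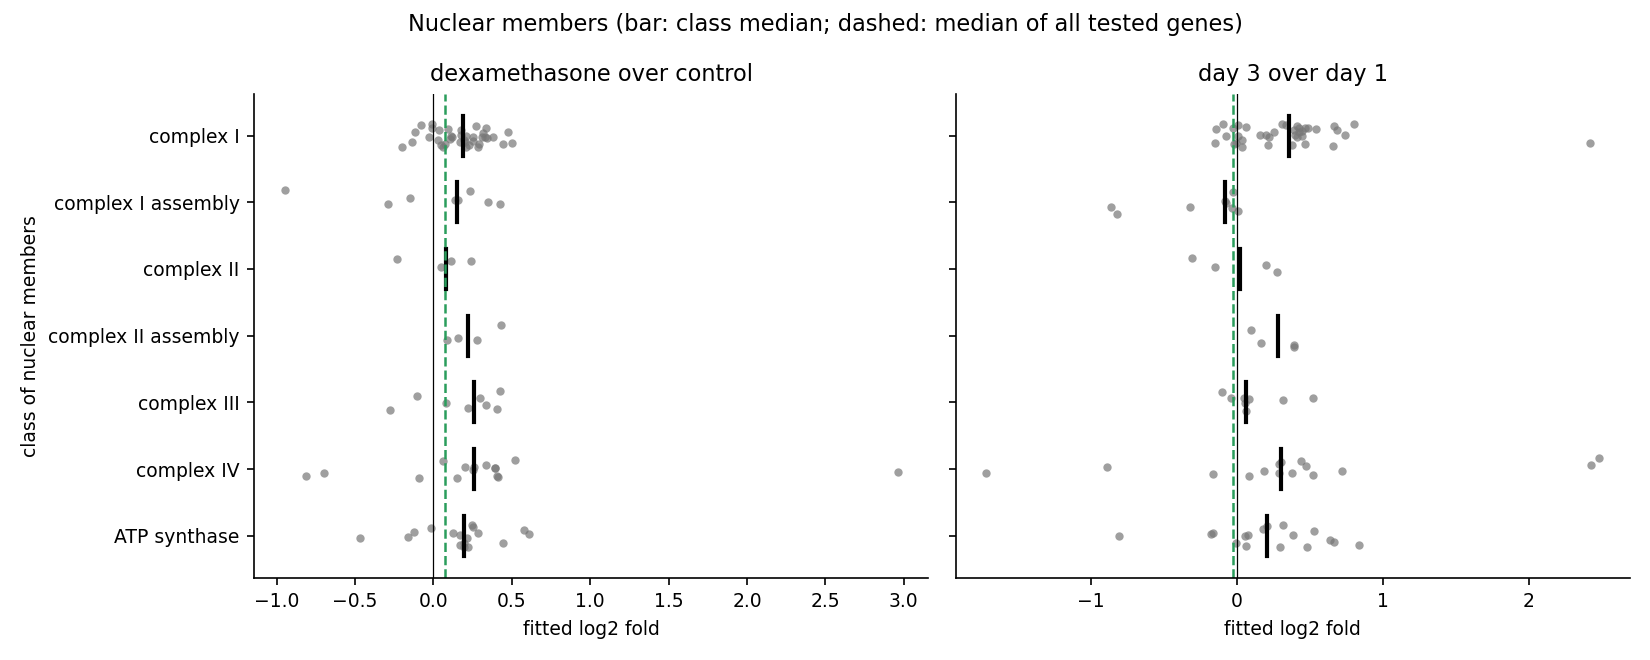
Fitted log2 folds of the tested nuclear members by class, for dexamethasone over control (left) and day 3 over day 1 (right); 1 point per gene, a bar at the class median and a dashed line at the median of all tested genes (0.07 and -0.03). Most class medians lie above the dashed line in both panels, and the median of the complex I assembly factors lies below it for day 3; the points past 1 or under -1 in the right panel other than Cox6b2, and past 1 in the left, are genes at or under 1.25 CPM.

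Day 3 set against day 1 also had no call in the main test, for members or any other gene (0.0% of 20044). At an unadjusted p under 0.05, 18 nuclear members were higher and 2 lower, against 7.04% of all genes higher and 7.47% lower (14.5% in all), and no mt- gene was past it. Of 94 nuclear members 69 had a positive log2 fold, with a median of 0.21 against -0.03 for all genes. DESeq2 called 6.38% of 17756 genes higher and 5.94% lower (12.3% in all), among them 7 nuclear members as higher on day 3 (Ndufb9, Ndufa6, Ndufs3, Ndufa2, Atp5e, Atp5s and Cox6b2) and 2 as lower (Ndufaf4 and Ndufaf6). With genes at a mean of 50 CPM or more, edgeR called 7.45% of 4323 genes higher and 5.14% lower (12.6% in all), among them Ndufb9 and Ndufa6 as higher and Ndufaf4 as lower. With that filter, no nuclear member was called when any plate but dexamethasone day 1 was left out. Without dexamethasone day 1, Ndufb9, Atp5f1 and Cox7a2l were called higher, and there was 1 lower and none higher without TMM scaling.

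Most subunits of complex I had positive folds over the days, and most of the factors that build it had negative ones. Ndufa6, an accessory subunit, held 50.3, 72.95 and 88.01 CPM on days 1 to 3 with dexamethasone and 40.7, 59.03 and 70.6 CPM in controls (log2 fold of day 3 over day 1, 0.80; DESeq2 adjusted p = 0.00226). Ndufb9 held 130, 135 and 199 CPM with dexamethasone and 99.8, 135 and 184 CPM in controls (log2 fold 0.74; DESeq2 adjusted p = 0.00957). Of 38 complex I subunits 31 had a positive fold, with a median of 0.36. Of the 8 assembly factors 7 had a negative fold, with a median of -0.08 against -0.03 for all genes, and 2 were called lower by DESeq2. Ndufaf4 held 154, 65.3 and 85.2 CPM on days 1 to 3 with dexamethasone and 130, 66.2 and 74.8 CPM in controls (log2 fold -0.82; DESeq2 adjusted p = 0.0026). Ndufaf6 held 40.0, 22.2 and 22.8 CPM with dexamethasone and 31.6, 18.6 and 16.7 CPM in controls (log2 fold -0.86; DESeq2 adjusted p = 0.011).

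Among members at a mean of 10 CPM or more, the highest fold of day 3 over day 1 was that of Cox6b2, described in mammals as the testis form of complex IV subunit 6B. It held 10.8, 18.2 and 60.7 CPM on days 1 to 3 with dexamethasone and 15.2, 50.8 and 84.8 CPM in controls. Its log2 fold of day 3 over day 1 was 2.48 ± 0.34 (SE, 6 plates; edgeR adjusted p = 0.224; DESeq2 adjusted p = 8.7e-10). Each later plate was higher than the earlier one in both groups, and controls were above dexamethasone plates on each day. The widely expressed form Cox6b1 held 130, 156 and 174 CPM on days 1 to 3 with dexamethasone and 118, 113 and 132 CPM in controls. Per kilobase of exon, Cox6b1 averaged 194 CPM and Cox6b2 averaged 36.2 CPM over the 6 plates.

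A Cox6b2 count was found in 80.9%, 79.8% and 90.4% of cells with dexamethasone on days 1 to 3, and in 81.9%, 93.8% and 95.7% of control cells; the exact 95% Clopper-Pearson intervals were 70.2 to 87.4% for dexamethasone day 2 and 89.3 to 98.8% for control day 3, covering counting error only. In cells thinned to 500000 counts the shares were 80.4%, 80.9% and 86.5% with dexamethasone and 77.01%, 91.6% and 89.01% in controls. On day 3 its level followed the erythroid maturation markers from cell to cell, with Spearman correlations of 0.69 over 94 dexamethasone cells and 0.64 over 93 control cells, whereas those of Cox6b1 were -0.06 and -0.55. Cells of a plate share a library and depth, so these are descriptions.

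The promoters of both genes are shown as the sequences before this pair of unlike isoforms, with that of Atp5g3 as one holding a motif of NRF1 (nuclear respiratory factor 1). They are RefSeq windows on GRCm38.p6 of 250 bases before to 50 bases after the start, for Cox6b2 chr7:4753045-4753344, for Cox6b1 chr7:30626065-30626364 and for Atp5g3 chr2:73911277-73911576, all on the minus strand. Capitals mark a match to the NRF1 motif, GCGCA and GCGC with any base (N) between them, or to CCGGAAGT, an ETS motif bound by GABPA, on either strand.
Cox6b2: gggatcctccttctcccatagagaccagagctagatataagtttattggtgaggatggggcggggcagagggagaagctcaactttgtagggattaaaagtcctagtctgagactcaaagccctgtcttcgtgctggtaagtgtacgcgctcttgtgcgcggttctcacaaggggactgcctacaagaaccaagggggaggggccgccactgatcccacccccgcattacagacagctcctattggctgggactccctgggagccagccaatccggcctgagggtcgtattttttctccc
Cox6b1: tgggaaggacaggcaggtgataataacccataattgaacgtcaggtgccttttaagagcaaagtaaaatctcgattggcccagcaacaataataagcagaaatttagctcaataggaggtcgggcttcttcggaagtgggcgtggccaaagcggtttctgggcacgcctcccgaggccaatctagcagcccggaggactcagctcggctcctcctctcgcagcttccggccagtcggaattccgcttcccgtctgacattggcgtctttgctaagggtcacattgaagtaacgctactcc
Atp5g3: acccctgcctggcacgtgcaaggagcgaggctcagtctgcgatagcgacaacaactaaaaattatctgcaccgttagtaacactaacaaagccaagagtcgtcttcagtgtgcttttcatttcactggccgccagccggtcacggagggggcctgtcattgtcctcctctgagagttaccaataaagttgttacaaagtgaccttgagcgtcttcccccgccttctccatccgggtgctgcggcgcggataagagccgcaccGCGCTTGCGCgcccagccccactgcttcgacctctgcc
Neither Cox6b window holds these letters, and the Atp5g3 window holds the NRF1 motif 1 time. Of 83 windows of 78 matched nuclear members, 26.5% held the NRF1 motif and 6.02% the ETS motif, against 4.6% and 3.89% of all 32851 windows. A match describes the sequence and not binding.

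**Figure D4:**
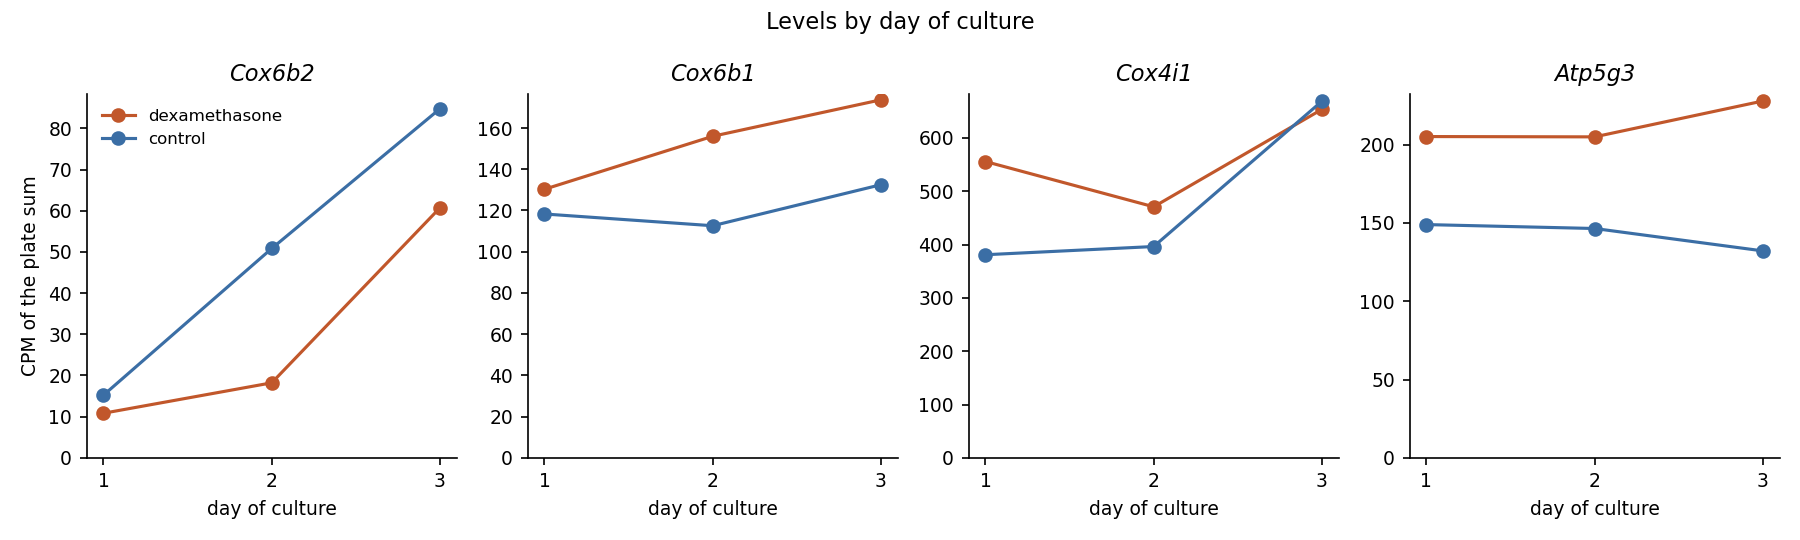
Levels of Cox6b2, Cox6b1, Cox4i1 and Atp5g3 in the plate sums (CPM, axes from 0) by day of culture, 1 point per plate and a line per group. Cox6b2 is highest on day 3 in both groups (60.7 CPM with dexamethasone, 84.8 CPM in controls), and Atp5g3 is higher on every dexamethasone plate than on every control plate.

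Other tissue forms were near 0. Cox4i2, Cox6a2, Cox7a1, Cox7b2, Cox8b and Cox8c, forms of lung, muscle or testis in mammals, were each at or under 0.826 CPM on every plate, and Ndufa4l2 was at or under 1.25 CPM. The widely expressed forms Cox4i1, Cox6a1, Cox7a2 and Cox8a held 78.2 to 669 CPM. Cox4i1 held 556, 471 and 654 CPM on days 1 to 3 with dexamethasone and 381, 396 and 669 CPM in controls.

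Within plates, the mt- messenger RNAs varied together more than they did with the nuclear members. This was measured over 7 mt- messenger RNAs and 60 nuclear members with a mean of 50 CPM or more. The median Spearman correlation between pairs of mt- messenger RNAs was 0.26, 0.47 and 0.35 over dexamethasone cells of days 1 to 3, and 0.36, 0.43 and 0.46 over control cells. Between mt- messenger RNAs and nuclear members it was 0.03, -0.04 and 0.04 with dexamethasone and -0.02, 0.13 and 0.20 in controls. Between pairs of nuclear members it was 0.16, 0.17 and 0.15 with dexamethasone and 0.16, 0.15 and 0.24 in controls. Between mt- messenger RNAs and mt- ribosomal RNAs it was 0.21, 0.28 and 0.33 with dexamethasone and 0.02, 0.28 and 0.24 in controls. On control day 3, mt-Nd1 and mt-Co1 had opposite relations to the maturation markers, with Spearman correlations of -0.75 and 0.55 over 93 cells, and on dexamethasone day 3 these were -0.17 and 0.48 over 94 cells. The spread of the mt- share was widest on dexamethasone day 2, from 2.28% to 28.8% per cell, where 2 cells were above 20%; without them the mean difference of the mt- share was 1.16 percentage points.

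Lists of other mitochondrial genes gave context. None of their genes passed the main test in either comparison. For dexamethasone, DESeq2 called 1 of 7 tested regulators of nuclear respiratory genes, 1 of 16 genes of import, chaperones and carriers and 1 of 14 of glycolysis. The background was 7.84% of 17155 genes. Each called gene below had the highest or lowest fold of its list. Of the 7 regulators, 4 had positive folds (median 0.12). For dexamethasone, the regulator Nrf1 held 110, 93.3 and 110 CPM with it and 151, 172 and 152 CPM in controls, without overlap (log2 fold -0.60; DESeq2 adjusted p = 0.0218). Slc25a4, the carrier that exchanges ADP for ATP, held 454, 285 and 259 CPM with dexamethasone and 304, 198 and 168 CPM in controls, higher on each day (log2 fold 0.57; DESeq2 adjusted p = 0.00864). Hk1, the hexokinase that starts glycolysis, held 488, 624 and 486 CPM with dexamethasone and 316, 345 and 300 CPM in controls, without overlap (log2 fold 0.73; DESeq2 adjusted p = 0.000563).

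Over the days the lists went different ways. Of all 20044 tested genes 10279 had a negative fold for day 3 over day 1 (median -0.03), and DESeq2 called 5.94% lower and 6.38% higher. For day 3 over day 1, 24 of 29 genes of mitochondrial transcription and translation had negative folds (median -0.52; 8 called lower and 0 higher by DESeq2), as did 14 of 16 genes of import, chaperones and carriers (6 called lower, 0 higher). Hspd1, the matrix chaperone of that list, held 1403, 1073 and 837 CPM with dexamethasone and 1723, 1050 and 783 CPM in controls (log2 fold -0.94; DESeq2 adjusted p = 0.000358). Of 8 mitophagy genes 7 had positive folds, and DESeq2 called 3 of them higher and 0 lower. Bnip3l, the mitophagy receptor of maturing red cells, held 96.5, 185 and 177 CPM on days 1 to 3 with dexamethasone and 118, 232 and 436 CPM in controls (log2 fold 1.41; DESeq2 adjusted p = 0.000464). Ucp2, an inner membrane carrier, held 370, 625 and 947 CPM with dexamethasone and 444, 1242 and 1144 CPM in controls (log2 fold 1.36; DESeq2 adjusted p = 3.5e-05).

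The day 2 plates also stood apart in glycolysis: 13 of 14 genes had positive folds for day 2 over day 1, with a median of 0.79, and all 14 had negative folds for day 3. Over all 20044 tested genes, 10205 folds were positive for day 2 over day 1 (median 0.02). Ldha, which makes lactate, held 3180, 4143 and 1813 CPM on days 1 to 3 with dexamethasone and 2370, 3657 and 1582 CPM in controls. mt-Nd1 went the other way, low on day 2 in both groups, and the part of the day 2 plates in either was not tested.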

How the data were processed

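STAR 2.4, featureCounts and the build GRCm38 were used per the submitters' processing notes, and the authors deposited whole-number read counts per gene and well; no unique molecular identifiers are stated. Symbols came with the counts, and 49326 of 49466 genes matched GENCODE vM21. A well was found in the labels for 575 of 576 value columns; the other column was not used. The header holds 1 empty name too many, after the gene column, and dropping it aligns names and values. So read, Mt2, Fkbp5, Per1 and Tsc22d3, which glucocorticoids induce, are higher on every dexamethasone plate than on every control plate; moving the names by 1 column breaks this.

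A cell needed 50000 gene counts and 1500 genes, which removed 10 wells; no limit was set on the mt- share, an outcome here. Counts were summed over the cells of each plate and tested with edgeR 4.0.16 (quasi-likelihood test, TMM scaling, filterByExpr, day and dexamethasone as additive terms, 2 residual degrees of freedom, Benjamini-Hochberg adjustment over 20044 genes, threshold 0.05). Within a day, log2 ratios of CPM with a prior count of 2 carry no test. Shares per cell were compared as plate medians over 3 days with an exact sign-flip permutation test. DESeq2 1.42.0, other filters and scalings, other cell filters and each plate left out were alternatives. Fits were tested on simulated data. Copies of mt- genes were found with BLAST 2.17.0 at 90% identity over 150 bases.

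Members and gene lists were chosen with earlier results of these data known. The rule for naming took each mt- ribosomal and messenger RNA, in each nuclear class the 2 members of highest level and the 2 highest and 2 lowest dexamethasone folds (with a mean level of 10 CPM or more), a list of isoforms, and in other lists the 2 of highest level and the highest and lowest fold. Of the genes of the other lists, only some called by DESeq2 are given with values; the members it did not take stand mostly as counts and medians. Members called only by DESeq2, or without overlap between the groups, were named after their values were seen.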

Additional observations from a re-analysis of the deposited data

Results flagged for a closer look

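Differences are given here where the 2 groups, or the days, went in opposite directions by at least 0.1. From day 1 to day 3 the median log2 ratio of day 3 over day 1 was 0.25 with dexamethasone and -0.20 in controls for the 11 tested mt- messenger RNAs. These 11 include genes at or under 0.225 CPM on every plate, given above as not measurable. For the mt- ribosomal RNAs the median log2 ratio was 0.87 with dexamethasone and -0.21 in controls. For the 11 tested mt- transfer RNAs it was 0.37 with dexamethasone and -0.34 in controls, at summed levels of 14.4 to 39.7 CPM with dexamethasone and 10.2 to 17.5 CPM in controls. The median mt- messenger RNA share per cell differed, dexamethasone minus control, by -0.703, 0.243 and -0.129 percentage points on days 1, 2 and 3. These differences between groups were not tested.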

How the results depend on the processing

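The counts of members called moved with the test and the filter. DESeq2 called 1 nuclear and 3 mt- members for dexamethasone and 9 nuclear members for day 3, and a filter at a mean of 50 CPM gave 3 nuclear members for day 3, where the edgeR counts were 0. With edgeR and its own filter on low counts, leaving out each plate in turn gave 0 to 0 calls of nuclear or mt- members for dexamethasone or day 3. With the 50 CPM filter, chosen in these combinations after seeing the data, leaving out the control day 1 plate gave 2 nuclear and 2 mt- members for dexamethasone, and leaving out dexamethasone day 1 gave 2 mt- members for dexamethasone and 3 nuclear members for day 3. Removing cells with neutrophil and monocyte markers under that filter gave 1 mt- member.

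The mean daily difference of the mt- share ran from 0.583 to 1.73 percentage points with each day left out, the lowest without day 3. That of the nuclear share ran from 0.0722 to 0.159, and that of the log2 ratio of mt- messenger to nuclear counts from -0.336 to -0.0795, both nearest 0 without day 1. For the mt- messenger RNA share it ran from -0.416 to 0.057, above 0 without day 1, against -0.196. For complex III it ran from -0.00371 to 0.0148, below 0 without day 1, against 0.00779. For complex II the mean over cells gave 0.000412, against -0.00377. The cause was not tested. Of 707 alternatives of 52 named folds, 8 changed direction, in 4 of the named folds, and 26 passed the threshold where the 6-plate edgeR fit did not. For dexamethasone, leaving out either plate of a day rests the fold on the other days. Leaving out the 2 plates of a day in turn is therefore nearly the same fit and not separate checks. With each plate left out, the dexamethasone log2 fold of Ndufv1 ran from -0.24 to 0.0075, above 0 when either day 2 plate was left out, that of Sdhb from -0.0395 to 0.19 and that of Sdhd from -0.0834 to 0.11, both below 0 when either day 1 plate was left out. That of Cox7a2l ran from -0.39 to 0.16, above 0 when either day 3 plate was left out. No paired analysis was possible because the replicate numbers are wells of a plate and pair no samples; plates were matched by day in the edgeR model and in the daily differences. With 3 plates a group there were 2 residual degrees of freedom, so genes without a call may still differ. The 4 mt- genes identical to nuclear copies over nearly their whole length could not be measured.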
